A study of Danio rerio with 25 samples.

Results

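Chromatin accessibility of adult zebrafish epicardium after sham surgery was compared with that of larval epicardium in 4 ATAC-seq libraries, 2 for each stage, chosen by their labels from the 25 libraries of the series, of which 14 measure accessibility. ATAC-seq cuts open chromatin with the Tn5 transposase, so that the number of reads in a region rises with its accessibility. The larval libraries came from untreated fish 5 days after fertilization that carried tcf21:H2B-Dendra2, a fluorescent histone under tcf21 regulatory sequence. The adult libraries came from fish that carried tcf21:BirA-mCherry, a biotin ligase joined to a red fluorescent protein under tcf21 regulatory sequence, and were taken 3 days after a sham operation, the control for cryoinjury of the heart. Both were heart cells labelled as epicardium and sorted by FACS. Stage, sham surgery and transgene changed together between the groups and cannot be told apart. The other 10 accessibility libraries entered the same fit and are named where they are used: 4 from cryoinjured adults with tcf21:BirA-mCherry, 2 of larval cells outside the epicardium with tcf21:H2B-Dendra2, and 2 of epicardium and 2 of cells outside it from larvae with tbx18:myr-Citrine.

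The epicardium is the cell layer that covers the heart. It forms in the embryo from the proepicardium, spreads over the ventricle, and gives rise to mural cells and fibroblast-like cells while it secretes growth factors and retinoic acid that act on the muscle below. In the adult it is largely quiescent until injury. The transcription factors Tcf21, Tbx18 and Wt1 and the retinoic acid synthesizing enzyme Aldh1a2 are its usual markers.

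The deposited table held whole-number read counts for 61954 peaks, of which 61883 had enough counts to be tested. The counts summed to 2622189 and 1314540 in sham replicates 1 and 2 and to 941610 and 755606 in larval replicates 1 and 2, so the larval values carry the larger counting error. Levels are given as read counts per library size (CPM) after TMM scaling, in the order replicate 1, replicate 2. No library held a count under 1, so a value of 1 stands for 1 read or none, and a count of 3 came to a mean of 1.60 CPM in the sham and 3.93 CPM in the larval libraries. Reads in peaks at promoters made up 32.4% and 32.7% of the sham counts and 24.4% and 25.1% of the larval counts, the lowest of the 14 libraries. In bulk libraries, fewer cells with an open site and less opening per cell cannot be told apart.

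The labelled cell type was checked first. The tcf21 promoter peak had 48.5 and 72.5 CPM in sham and 25.7 and 36.0 CPM in larval epicardium, against a mean of 4.91 CPM in larval cells outside the epicardium. The wt1a promoter peak had 46.7 and 55.1 CPM in sham, 86.1 and 90.1 CPM in larval epicardium and a mean of 2.58 CPM outside it. The tbx18 promoter peak had 50.8 and 79.7 CPM in sham, 38.0 and 78.1 CPM in larval epicardium and 16.5 CPM outside it. All 4 libraries were thus open at these promoters, and none of the 3 was called as different between sham and larva (adjusted p = 0.166, 0.204 and 0.834 with edgeR), although the groups did not overlap at tcf21 and wt1a. Peaks annotated to cardiomyocyte markers held 0.00953% to 0.0132% of the counts of the 4 libraries, and those of epicardial markers 0.106% to 0.191%. Erythroid markers held 0.0107% to 0.0157%, endothelial markers 0.0291% to 0.0389%, and fibroblast and mural markers 0.0502% to 0.0750%. The lists differ in their number of peaks, and such shares were not taken for cells outside the epicardium, so they do not measure purity. The tcf21 promoter and other tcf21 peaks lie in the raised run described below, where copies of the DNA were not measured, so they are weaker evidence for the sham cells. The series has no adult accessibility library of cells outside the epicardium, and the sham levels could be set beside larval cells only. The 21 cardiomyocyte, 23 erythroid and 13 leukocyte marker peaks had no call in either direction. The endothelial list had 1 call in 53 peaks, a peak 49301 bases upstream of fli1a that was lower in sham and lost its call in 3 of the 4 fits that left out a library. The leukocyte peaks had the highest median log2 fold change of these lists, 1.07, with 0.0140% and 0.0170% of the counts in sham and 0.0103% and 0.00450% in larva, and their part in the results was not tested.

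Accessibility differed at 4726 peaks, or 7.64% of those tested, by edgeR's quasi-likelihood test at a Benjamini-Hochberg adjusted p under 0.05, and those peaks are called below. Of these, 1446 (2.34%) were higher and 3280 (5.3%) lower in sham than in larval epicardium. The median fold change was 5.55 among higher and 4.55 among lower peaks, and the smallest called log2 fold change was 1.16 in size. At 4705 of the called peaks the sham and larval libraries did not overlap, while 51.8% of all tested peaks had no overlap between them. At 558 of the higher peaks both larval libraries were at or under 3 reads, and at 60 of the lower peaks both sham libraries were. The higher peaks were annotated to 1325 genes and the lower peaks to 2555, with 168 genes in both sets.

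The balance between the directions rested on the scaling. Lower peaks were 69.4% of calls with TMM factors, 45.1% with library totals (2557 higher, 2104 lower) and 92.1% with factors taken from promoter peaks alone (598 higher, 6992 lower). These scalings moved the median log2 fold change of all peaks from 0.03 to 0.27 and to −0.41. Fewer peaks were called when a library was left out: 2582 without larval replicate 1, 2346 without larval replicate 2, 1629 without sham replicate 1 and 2009 without sham replicate 2. Of the 151 called peaks that the naming rule took, 75 kept their call with each library left out and under each other setting that tested them. There were 13 such settings for most peaks and 12 for the ap4e1 peak. One of them, an added minimum log2 fold change of 1, could remove no call, since the smallest called was 1.16 in size. Wherever the text does not state a loss, the peak it gives with an adjusted p kept its call with each library left out. Losses under settings that kept all libraries are stated for few peaks.

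The peak with the largest rise lay in an intron of sh3bgrl2 (ENSDARG00000036878), at chr23:31479880-31480380, close to the tcf21 locus. It had 124 and 113 CPM in sham against 3.35 and 1.5 CPM in larva, where it was at the floor, so that it was at least 30.1-fold higher in sham (log2 fold change 5.51, SE 0.60, adjusted p = 1.41e-07). The promoter of cnpy1, which in zebrafish modulates FGF signalling at the midbrain-hindbrain boundary, had 29.3 and 30.4 CPM in sham and 1.12 and 1.5 CPM in larva, at least 7.61-fold higher (adjusted p = 6.8e-05). At both peaks the sham libraries lay close together and the larval ones were at or under 3 reads.

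Most of the other peaks with the largest rises were in introns and between genes. An intronic peak of ephb2b, a receptor for ephrin guidance cues, had 35.1 and 23.2 CPM in sham and was at least 7.42-fold higher. An intronic peak of fgf12a, an intracellular FGF homologous factor, was at least 7.16-fold higher, and a peak near icn, an S100-type calcium-binding protein, had 36.8 and 37.0 CPM in sham and was at least 9.39-fold higher. The rtn4rl2a promoter, of a gene of the Nogo receptor family, had 28.0 and 19.6 CPM in sham and was at least 6.05-fold higher. Peaks near PAMR1, inadl and pmp22b were also among the 10 largest rises, with log2 fold changes of 4.07 to 4.17, and the pmp22b peak lost its call in 1 of the fits that left out a library. The promoters of COA4, fxr1 and irak3 followed among promoters, at 4.01, 3.89 and 3.77, and the last pair lost the call in 2 and 1 of those fits. The tbx18 larval epicardium, which the comparison did not use, separated these peaks: fgf12a had a mean of 1.13 CPM there, close to the tcf21 larval libraries, but cnpy1 had 24.0 CPM and sh3bgrl2 32.7 CPM, far above them.

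The largest falls were at distal peaks that were open in larva and nearly closed in sham. An intronic peak of aifm5, of the apoptosis-inducing factor family, at chr21:39278006-39278506, had 3.75 and 2.17 CPM in sham against 116 and 213 CPM in larva, 51.1-fold lower in sham (log2 fold change −5.68, SE 0.68, adjusted p = 8.44e-07). An intronic peak of lims2, which encodes a focal adhesion LIM protein, had 0.682 and 0.725 CPM in sham and 33.5 and 43.6 CPM in larva, at least 24.1-fold lower. A pair of intronic peaks of rnf34b, a ubiquitin ligase gene, were at least 15.1-fold and 17.9-fold lower. Peaks at glsa, a glutaminase gene, at tanc2a, a scaffold protein gene, and near the microRNA gene mir-130c-2 were at least 23.6-fold, 21.7-fold and 20.4-fold lower. The peaks at ap4e1 and dnah9 had log2 fold changes of −5.35 and −5.42. The dnah9 peak had 40.3 CPM in larval replicate 1 and 3.00 CPM in larval replicate 2 and was not called in 2 of the fits that left out a library.

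Falls at promoters were rarer. The promoter of adcy1a, an adenylyl cyclase gene, had 6.48 and 0.725 CPM in sham and 44.7 and 81.1 CPM in larva (log2 fold change −3.88, adjusted p = 7.37e-05). The igf2bp3 promoter had 3.75 and 10.9 CPM in sham and 74.9 and 91.6 CPM in larva (−3.64, adjusted p = 2.53e-06). The larval libraries lay above both sham libraries at each, which the naming rule required of these promoters. The promoters of pnck, sgms1 and clcn2c, at −3.83, −3.70 and −3.69, lost their calls in 2, 2 and 3 of the fits that left out a library.

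**Figure D1:**
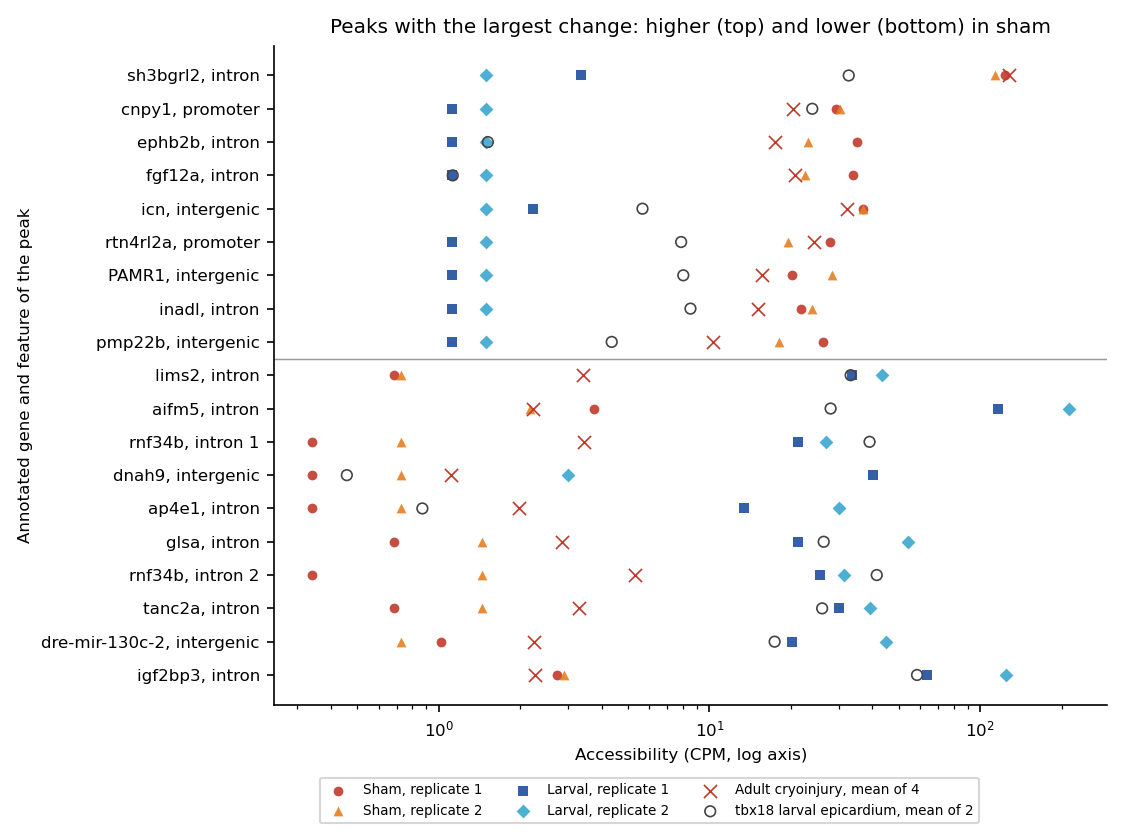
Accessibility in CPM on a log axis of 9 of the 10 peaks with the largest called rise and the 10 with the largest called fall, one point per sham and larval library, with the mean of the 4 cryoinjury libraries as a cross and of the 2 tbx18 larval epicardium libraries as an open circle. The sham and larval points stand apart at all 19 peaks because only peaks without overlap were taken. The cryoinjury mean lies nearer the sham points than the larval points at most of these peaks.

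The densest cluster of higher peaks surrounded tcf21 itself (ENSDARG00000036869). The window chr23:31000001-32000000 held 25 higher peaks of 101, and the next densest of the 1352 windows of that length held 8 of 55 (chr16:51000001-52000000) and 7 of 41 (chr9:6000001-7000000). Tied with the chr9 window were chr1:22000001-23000000, with 7 of 42, and chr1:46000001-47000000, with 7 of 94 and as many lower peaks. All 25 lay in an unbroken run of 34 peaks that spans 190.5 kb, chr23:31464634-31655162, in which none was lower and 33 had a positive log2 fold change, with a median of 2.21 and a range of −0.01 to 5.51. The limits of this run were chosen after its values were seen, as the first and last higher peak of the window. That all 25 lie in it, and that flanking peaks of the window hold no higher call, therefore follows from the definition. The 34 peaks to its left had no call in either direction and a median of −0.18, and the 34 to its right had no higher and 4 lower peaks. The run begins between the hmgn3 promoter, with a log2 fold change of 0.07, and lca5, and ends before the tbpl1 promoter, which had −0.17. At the right end of the run, 2 higher peaks are annotated to tbpl1.

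The median level over the 34 peaks of the run was 56.8 and 73.2 CPM in sham and 14.5 and 12.8 CPM in larval epicardium. The sham level was lowest at an eya4 peak, chr23:31587386-31587886, with 25.9 and 21.7 CPM in sham and 19.01 and 30.0 CPM in larva, and this peak had the log2 fold change of −0.01. The 4 cryoinjury libraries, with the same transgene as the sham fish, had medians of 64.1 to 80.5 CPM. Larval cells outside the epicardium had 10.2 and 6.42 CPM, and the tbx18 libraries had 4.13 and 4.36 CPM in epicardium and 2.7 and 2.11 CPM outside it. In the left flank the medians were 9.38 and 9.42 CPM in sham and 12.3 and 9.01 CPM in larva. In the comparison of cryoinjured adults with tbx18 larval epicardium, 34 of the 34 peaks were higher, with a median log2 fold change of 4.35, against 4 of 34 in the left flank. The number of copies of this stretch of DNA per cell was not measured, and more copies and more open chromatin cannot be told apart in these libraries.

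Inside the run, the rises were not largest at tcf21. The peak at the end of the tcf21 transcript, chr23:31626775-31627275, had 92.8 and 119.6 CPM in sham and 14.5 and 24.0 CPM in larva, 5.58-fold higher (adjusted p = 0.000398). Another tcf21 peak 6168 bases from the start rose from 29.1 and 36.0 CPM in larva to 124 and 139.9 CPM in sham (log2 fold change 2.02, adjusted p = 0.00201). The strongest peak of the locus, in the intron at chr23:31642091-31642591, had 357 and 560.2 CPM in sham and 157 and 198 CPM in larva (log2 fold change 1.37, adjusted p = 0.0244), and its call was lost in 3 of the fits that left out a library and with promoter-based scaling. The other 5 of the 8 tcf21 peaks, the promoter among them, were not called. By contrast all 4 peaks of sh3bgrl2 and all 4 of lca5, which encodes a ciliary protein, were higher, as were 6 of 10 of eya4, a transcriptional coactivator gene. The lca5 peak at chr23:31469321-31469821 had 78.5 and 94.9 CPM in sham and 13.4 and 4.51 CPM in larva (log2 fold change 3.19, adjusted p = 5.5e-05). The eya4 promoter had 28.3 and 39.1 CPM in sham and 5.59 and 3.00 CPM in larva (2.89, adjusted p = 0.00187), with its call lost in 1 of the fits that left out a library. The promoter of the ribosomal protein gene rps12 had 90.1 and 98.6 CPM in sham and 21.2 and 21.0 CPM in larva (2.15, adjusted p = 0.000671).

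RNA of genes in this stretch was read from the RNA-seq libraries of the same groups, 2 sham and 3 larval. The sham RNA came from a nuclear pulldown and the larval RNA from FACS, so that the purification differs along with stage, surgery and transgene. Over the 15851 tested genes with a peak, the median RNA log2 fold change was −0.56, and RNA values here and below are read beside it. The sh3bgrl2 counts were 845 and 1006 in sham and 34, 35 and 11 in larva (log2 fold change 6.01, SE 0.62, adjusted p = 1.25e-06 with edgeR). The lca5 counts were 144 and 504 in sham and 30, 69 and 13 in larva (4.03, adjusted p = 0.000921), and rps12 rose by 1.80 (adjusted p = 0.00682). All 3 kept their calls in every RNA fit run. For an RNA call given here or below without such a statement or a loss, its hold in other fits is not reported. With any RNA library left out, a smaller share of genes with a peak was called lower in RNA. RNA of eya4 had a log2 fold change of 0.33 (adjusted p = 0.695). RNA of tcf21 had 138 and 599 counts in sham and 2081, 890 and 2504 in larva, a log2 fold change of −1.53 that was not called (adjusted p = 0.0849) and was called in 6 of the 10 other RNA fits. RNA of tbpl1, at the right edge, fell by 1.85 on the log2 scale (adjusted p = 0.028), a call lost without larval replicate 4 and without either sham replicate. Thus RNA and accessibility were both higher for sh3bgrl2, lca5 and rps12 but not for tcf21, and tbpl1 had 2 higher peaks with lower RNA. In the left flank, which had no called peak, RNA of phip was higher in sham (2.10, adjusted p = 0.0121). RNA of hmgn3 and tbx18, also there, was not called. Copies of this stretch of DNA were not measured for the RNA libraries either, and their part in its RNA was not tested.

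**Figure D2:**
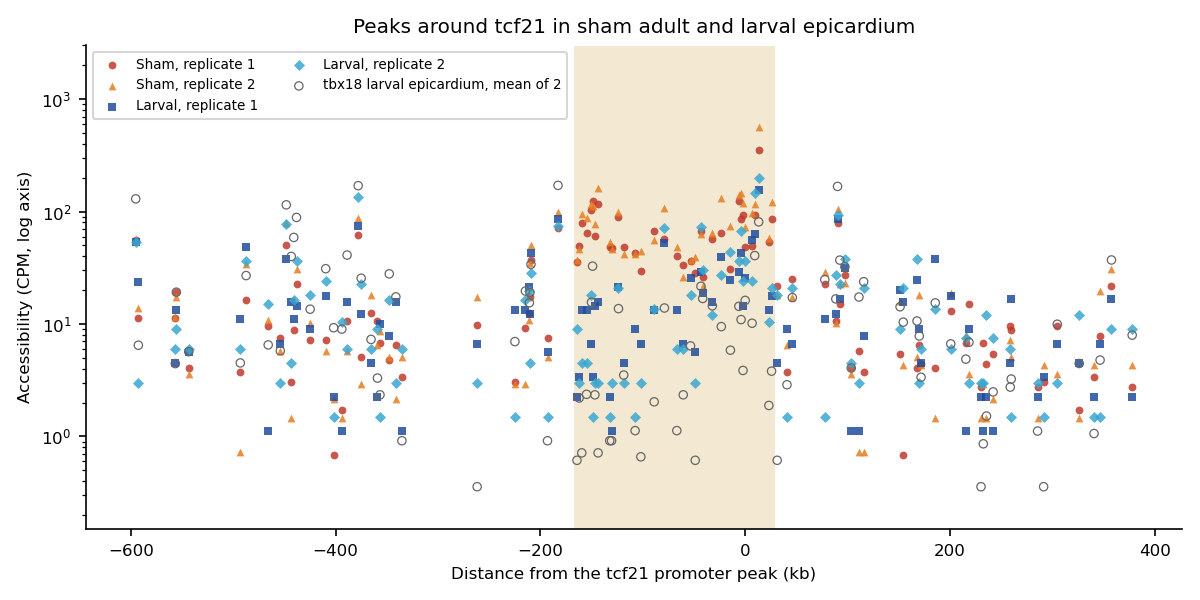
Level in CPM of each peak against its distance in kb from the tcf21 promoter peak, for the 34 peaks of the run (shaded) and 34 peaks on each side, with the sham and larval libraries drawn separately. The sham points lie above the larval ones at most peaks of the shaded run, where their medians are 56.8 and 73.2 against 14.5 and 12.8 CPM, and mix with them on both sides.

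Peaks of the epicardial markers moved in both directions. Of 44 peaks of the 5 markers, 3 were higher, all at tcf21, and 4 were lower. At aldh1a2, 3 of 14 peaks were lower. The peak at chr7:30051664-30052164 had 14.7 and 18.8 CPM in sham and 61.5 and 84.1 CPM in larva (log2 fold change −2.13, adjusted p = 0.000687). An intronic aldh1a2 peak at −2.33 (adjusted p = 0.0122) and another at −1.52 (adjusted p = 0.0497) each lost their call in 3 of the fits that left out a library. The peak at −1.52 also lost it in 5 of the 13 other settings. The fourth lower peak was in an intron of wt1b, with 6.82 and 3.62 CPM in sham and 21.2 and 33.0 CPM in larva (−2.28, adjusted p = 0.017), and it too lost its call in 3 of them. None of the 11 tbx18 peaks was called. RNA of wt1b fell by 4.05 on the log2 scale (adjusted p = 0.0132), a call lost without sham replicate 4. RNA of wt1a was also lower, with 29 and 94 counts in sham and 632, 606 and 751 in larva (−2.59, adjusted p = 0.0189). RNA of aldh1a2 and tbx18 was not called (−0.83 and −1.30, adjusted p = 0.242 and 0.104), nor was that of tcf21. The log2 fold changes of all 5 markers were negative, beside a median of −0.56 over genes with a peak.

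Genes were grouped by pathway in 28 lists beside the 6 marker lists, and each list is read against the 5.3% of all peaks that were lower and the 2.34% that were higher. The list of DNA methyltransferases, Tet enzymes and early chromatin factors had the highest share of lower peaks, 19 of 92 (20.7%), with 2 higher. Caveolae genes followed with 8 lower of 49 (16.3%) and 1 higher, and genes of retinoic acid synthesis, binding and breakdown with 20 of 132 (15.2%) and 3 higher. The AP-1 and immediate early factors had 12 lower of 92 (13%) and 1 higher, and the Id genes and BMP signalling 17 of 146 (11.6%) and 3 higher. In all 5 lists lower calls outnumbered higher ones under each scaling. With a library left out, they had 10 to 13, 3 to 6, 10 to 14, 3 to 8 and 9 to 15 lower peaks. Their median log2 fold changes were −0.31, −0.38, −0.34, −0.13 and −0.28, beside 0.03 for all peaks. In libraries outside the comparison, 19 of 19, 7 of 8, 17 of 20, 9 of 12 and 16 of 17 of these lower peaks were also lower in cryoinjured adults than in tbx18 larval epicardium. Of all 3280 lower peaks 68.4% were lower there too, so such overlap is common to lower peaks. The share in each of these lists was higher than that, on 8 to 20 peaks, and the difference was not tested.

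The lower peaks of the first list belonged mostly to genes of RNA binding, not of DNA methylation. At igf2bp3 and igf2bp1, whose RNA-binding proteins are made mainly in embryos and fetal tissues, 4 of 6 and 5 of 11 peaks were lower. The igf2bp3 intron peak at chr19:20620574-20621074 had 2.73 and 2.90 CPM in sham and 63.7 and 125 CPM in larva, 32.9-fold lower in sham (log2 fold change −5.04, SE 0.54, adjusted p = 1.26e-07). The igf2bp1 intron peak at chr3:23433452-23433952 had 2.39 and 3.62 CPM in sham and 77.2 and 67.6 CPM in larva, 25.1-fold lower (−4.65, adjusted p = 2.5e-07). Both were open in all larval groups and nearly closed in both adult groups. The igf2bp3 peak had means of 64.6 CPM in larval tcf21 cells outside the epicardium, 58.5 and 47.7 CPM in tbx18 epicardium and outside it, and 2.28 CPM after cryoinjury. The igf2bp1 peak had 42.1, 59.2, 46.0 and 1.22 CPM in the same order.

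Related genes had smaller falls. At lin28b, an RNA-binding repressor of let-7 microRNA processing, 3 of 9 peaks were lower, with log2 fold changes of −2.13 to −2.15, and each lost its call in 2 or more of the fits that left out a library. At hmga2, an architectural chromatin protein gene, 2 of 8 were lower, the promoter with 5.80 and 6.52 CPM in sham and 23.5 and 18 CPM in larva (−1.77, adjusted p = 0.04), and 1 was higher. The hmga2 promoter lost its call with any library left out. The DNA methyltransferase gene dnmt3ab had 3 of 9 lower peaks. One of these had 34.8 and 42.0 CPM in sham and 96.2 and 167 CPM in larva (−1.77, adjusted p = 0.00424), and its call was lost in 2 of the fits that left out a library. The demethylating enzyme gene tet1 had 1 lower peak of 4 (−1.83, adjusted p = 0.00478), and hmga1a had 1 higher peak of 7, and both lost their calls in 1 of those fits. In RNA, hmga2 had 13 and 36 counts in sham and 1079, 469 and 851 in larva (−4.22, adjusted p = 0.00373), a call kept in every RNA fit. RNA of lin28b was 0 and 0 in sham and 49, 32 and 18 in larva, at least 6.02-fold lower (adjusted p = 0.0171), and lost its call without either sham replicate. RNA of igf2bp1 and igf2bp3 was not called (−1.51 and −1.01, adjusted p = 0.0721 and 0.182).

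Of the 20 lower peaks in the retinoic acid list, 15 belonged to receptor genes, 6 of them to raraa (ENSDARG00000056783), 3 to rarab, 2 each to rargb and rxraa, and 1 each to rarga and rxrab. The raraa intron peak at chr12:10855050-10855550 had 3.75 and 5.80 CPM in sham and 101 and 60.1 CPM in larva, 17.6-fold lower (log2 fold change −4.14, adjusted p = 2.53e-06). A peak 50298 bases from rxraa had 1.36 and 2.17 CPM in sham and 36.9 and 52.6 CPM in larva (−4.70, adjusted p = 1.13e-05). The groups did not overlap at either. At rarga, 1 intronic peak was lower, with 2.05 and 2.90 CPM in sham and 24.6 and 36.0 CPM in larva (−3.64, adjusted p = 0.000142), and another was higher (1.78, adjusted p = 0.0409), with its call lost in 3 of the fits that left out a library. Both peaks of dhrs3a, a retinaldehyde reductase gene, were higher, at 2.67 and 3.35, with calls lost in 1 and 2 of those fits. RNA of rarga was higher in sham (3.17, adjusted p = 0.000691), and RNA of raraa was not called (−1.25, adjusted p = 0.143).

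Genes of other lists with lower peaks encode transcription factors and signalling proteins. Shares of lower peaks in the circadian and cardiac lists were 8.53% and 7.06%, beside 5.3% of all peaks. The smallest adjusted p of any list member was at an intronic peak of cry1bb, a cryptochrome gene, with 4.44 and 8.70 CPM in sham and 180 and 159 CPM in larva, 27.4-fold lower (log2 fold change −4.78, SE 0.46, adjusted p = 1.08e-08). Its RNA went the other way, higher in sham (log2 fold change 2.52, adjusted p = 0.0129). The circadian list had 11 lower peaks of 129 and 1 higher, and 2 to 9 lower with a library left out. The cardiac transcription factors had 12 lower of 170 and 1 higher, with 3 lower peaks of 4 at gata4 that lost their calls in 2, 2 and 3 of the fits that left out a library. A peak 47008 bases from hand2, a heart and limb bHLH factor gene, had 8.19 and 5.80 CPM in sham and 102 and 66.1 CPM in larva (−3.54, adjusted p = 3.87e-06). A peak in srfb, the serum response factor gene, had 23.5 and 21.0 CPM in sham and 165 and 161 CPM in larva (−2.86, adjusted p = 3.39e-05). Among AP-1 genes, jun had 4 lower peaks of 23, the only one of them called with each library left out lying 146223 bases from its start (11.9 and 9.42 CPM in sham, 48.1 and 120.1 CPM in larva). The batf intron peak had 11.3 and 12.3 CPM in sham and 91.7 and 87.1 CPM in larva (−2.93, adjusted p = 0.000112). Unlike most lower peaks, it was higher in cryoinjured adults than in tbx18 larval epicardium, by 1.97, with a tbx18 mean of 3.41 CPM. RNA of egr1, an immediate early gene with 1 lower peak of 9, fell by 5.6 on the log2 scale (adjusted p = 1.39e-05).

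Genes of signalling ligands and feedback inhibitors had lower peaks, in lists whose shares of lower peaks were near that of all peaks. The paracrine, cytokine, FGF, Wnt and Hedgehog lists had 9 lower of 136, 9 of 111, 8 of 142, 10 of 148 and 4 of 52, shares of 5.63% to 8.11% beside 5.3% of all peaks, and 1, 1, 2, 4 and 0 higher. A peak 4843 bases from tgfb2, a TGF-beta ligand gene, had 10.2 and 11.6 CPM in sham and 98.4 and 107 CPM in larva (log2 fold change −3.24, adjusted p = 5.01e-06). Peaks at pdgfd, angptl4, pdgfbb and vegfaa, which encode secreted growth and angiogenic factors, had log2 fold changes of −2.66, −3.17, −3.47 and −2.52, and those of angptl4 and pdgfbb were promoters. The pdgfbb promoter had 4.78 and 0.725 CPM in sham and 30.2 and 43.6 CPM in larva. Among inhibitors, peaks at socs3a, socs1a and socs3b, which limit cytokine signalling, had −4.18, −3.68 and −2.32, and those at dusp6 and spry4, which limit FGF signalling, −3.35 and −2.43. The axin2 and ptch1 peaks, at negative regulators of Wnt and Hedgehog signalling, had −2.50 and −2.39. A peak near nog1, a BMP antagonist gene, had −2.95. Inhibitor genes had higher peaks as well. Another socs3b peak was higher (log2 fold change 2.69, adjusted p = 0.0176), as were another dusp6 peak, at least 3.65-fold (adjusted p = 0.0324), and the 1 called spry2 peak, at least 2.76-fold (adjusted p = 0.0431). These calls were lost in 3, 4 and 4 of the fits that left out a library. The higher Wnt peaks were at dkk1a and frzb, which encode secreted Wnt inhibitors, and at fzd7b and wnt7ba, with calls lost in 2, 4, 4 and 1 of those fits.

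Receptor and transcriptional effector genes had lower peaks too. The Notch list had 13 lower peaks of 134 (9.70%) and 1 higher. At her9, a hairy-related repressor gene, 4 of 8 peaks were lower, among them one with 4.09 and 5.07 CPM in sham and 42.5 and 73.6 CPM in larva (log2 fold change −3.67, adjusted p = 3.07e-05). A her6 peak had 7.85 and 7.97 CPM in sham and 78.3 and 55.6 CPM in larva (−3.08), and peaks at dll4, a Notch ligand gene, and notch3 had −4.04 and −2.60. A peak near the Wnt receptor gene fzd7a had 13 and 7.97 CPM in sham and 67.1 and 120.1 CPM in larva (−3.09, adjusted p = 1.46e-05), and the FGF receptor gene fgfr4, the TGF-beta co-receptor gene tgfbr3 and the Hippo effector gene tead1a had peaks at −3.01, −2.51 and −3.41. Another tgfbr3 peak was at least 4.61-fold higher (adjusted p = 0.0218), with its call lost in 3 of the fits that left out a library. In the BMP list, id4 and smad6a had 2 lower peaks each, and id3 had 1 higher, with 34.1 and 44.9 CPM in sham and 14.5 and 13.5 CPM in larva (1.48, adjusted p = 0.0394) and its call lost with any library left out. The guidance list, the longest, had 23 lower of 321 (7.17%) and 7 higher. Its robo1, robo3 and slit2 peaks fell by 3.16, 3.59 and 2.32 on the log2 scale, whereas the ephb2b peak described above rose, and robo2 had 5 lower and 2 higher peaks. Among genes of this paragraph with lower peaks, RNA went both ways. It was higher in sham for notch3 and slit2 (2.67 and 2.56, adjusted p = 0.00751 and 0.0095). It was lower for her9, her6 and fgfr4, among others (−5.16, −1.99 and −3.76, adjusted p = 6.32e-05, 0.0238 and 0.00109).

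Membrane and matrix genes were split. At cavin2b, which encodes a caveolar coat protein, an intronic peak had 2.73 and 1.45 CPM in sham and 36.9 and 34.5 CPM in larva (log2 fold change −3.95, adjusted p = 1.01e-05). At cav1, the caveolin gene, 2 of 5 peaks were lower, the promoter with 14.3 and 10.1 CPM in sham and 33.5 and 64.6 CPM in larva (−1.95, adjusted p = 0.00404) and its call lost in 2 of the fits that left out a library. RNA was higher in sham for cavin1b, cav3 and ehd2b, which had lower peaks (log2 fold change 3.76, 4.33 and 1.43, adjusted p = 0.000193, 0.000752 and 0.0316). It was lower for cav2, which had the higher peak (−4.34, adjusted p = 0.0003), and not called for cavin2b and cav1. Peak calls were lost in 1, 2 and 3 of the fits that left out a library at cavin1b, cav3 and cav2. At ehd2b they were lost in 3 and 4. Collagen genes had 8 higher and 8 lower peaks of 160 (5.00% each). They had 16 and 5 with library totals and 5 and 13 with promoter-based scaling. The basement membrane collagen gene col4a1 had 2 of the lower peaks, one with 9.55 and 3.62 CPM in sham and 89.5 and 76.6 CPM in larva (−3.53, adjusted p = 4.95e-06). The fibrillar collagen genes supplied most of the higher ones. The fibrillar genes col2a1b and col11a1b had lower peaks, each with its call lost in 2 of the fits that left out a library. A peak near col5a2a had 22.2 and 23.9 CPM in sham and 2.24 and 1.5 CPM in larva, at least 5.86-fold higher (adjusted p = 0.00211), and col5a3a had 2 higher peaks of 5, with calls lost in 3 and 4 of the fits that left out a library. The col1a1a intron peak rose by 2.62 on the log2 scale (adjusted p = 0.0175), with its call lost in 3 of the fits that left out a library. A col18a1a peak with 19.8 and 24.6 CPM in sham was at least 5.65-fold higher and lost its call in 1 of them, while another col18a1a peak was lower (log2 fold change −2.04, adjusted p = 0.0426), a call lost in 4 of them.

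The remaining lists held few calls, and scaling changed the direction of several. The glucocorticoid and thyroid hormone list had 4 higher and 2 lower peaks of 98, and 2 and 6 with promoter-based scaling. Its tsc22d3 peak, at a glucocorticoid-induced gene, had 30.4 and 35.5 CPM in sham and 6.71 and 4.51 CPM in larva (log2 fold change 2.51, adjusted p = 0.00378), and its call was lost in 1 of the fits that left out a library. Peaks at klf9, thrab and nr3c2 were higher too, with calls lost in 4, 3 and 4 of those fits. The EMT list had 2 higher peaks, 1 each at twist1a and twist1b, and 6 lower of 100, and 3 and 1 with library totals. Over the settings that kept all libraries it had 1 to 26 lower peaks. The twist1b peak had 38.9 and 38.4 CPM in sham and 3.35 and 10.5 CPM in larva (2.55, adjusted p = 0.00372). The calls at twist1b and twist1a were lost in 1 and 4 of the fits that left out a library. RNA of twist1a was 0 and 1 in sham and 1813, 1136 and 2088 in larva, at least 309-fold lower (adjusted p = 5.5e-05). RNA of twist1b was higher in sham (log2 fold change 2.37, adjusted p = 0.0216). Higher and lower peaks numbered 4 and 8 of 133 in TGF-beta signalling, 2 and 6 of 90 in the Hippo list, 4 and 4 of 108 in the cell cycle list, 2 and 3 of 63 among matrix metalloproteinases, 2 and 3 of 57 among Runx and C/EBP factors, and 3 and 1 of 52 among complement and coagulation genes. They numbered 2 and 1 of 108 among matricellular genes, 0 and 1 of 58 among insulin-like growth factor genes, 0 and 3 of 42 among claudins and keratins, 0 and 3 of 26 among Nr2f receptors, 0 and 2 of 23 among Hox genes, and 1 and 2 of 52 among fibroblast and mural markers.

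**Figure D3:**
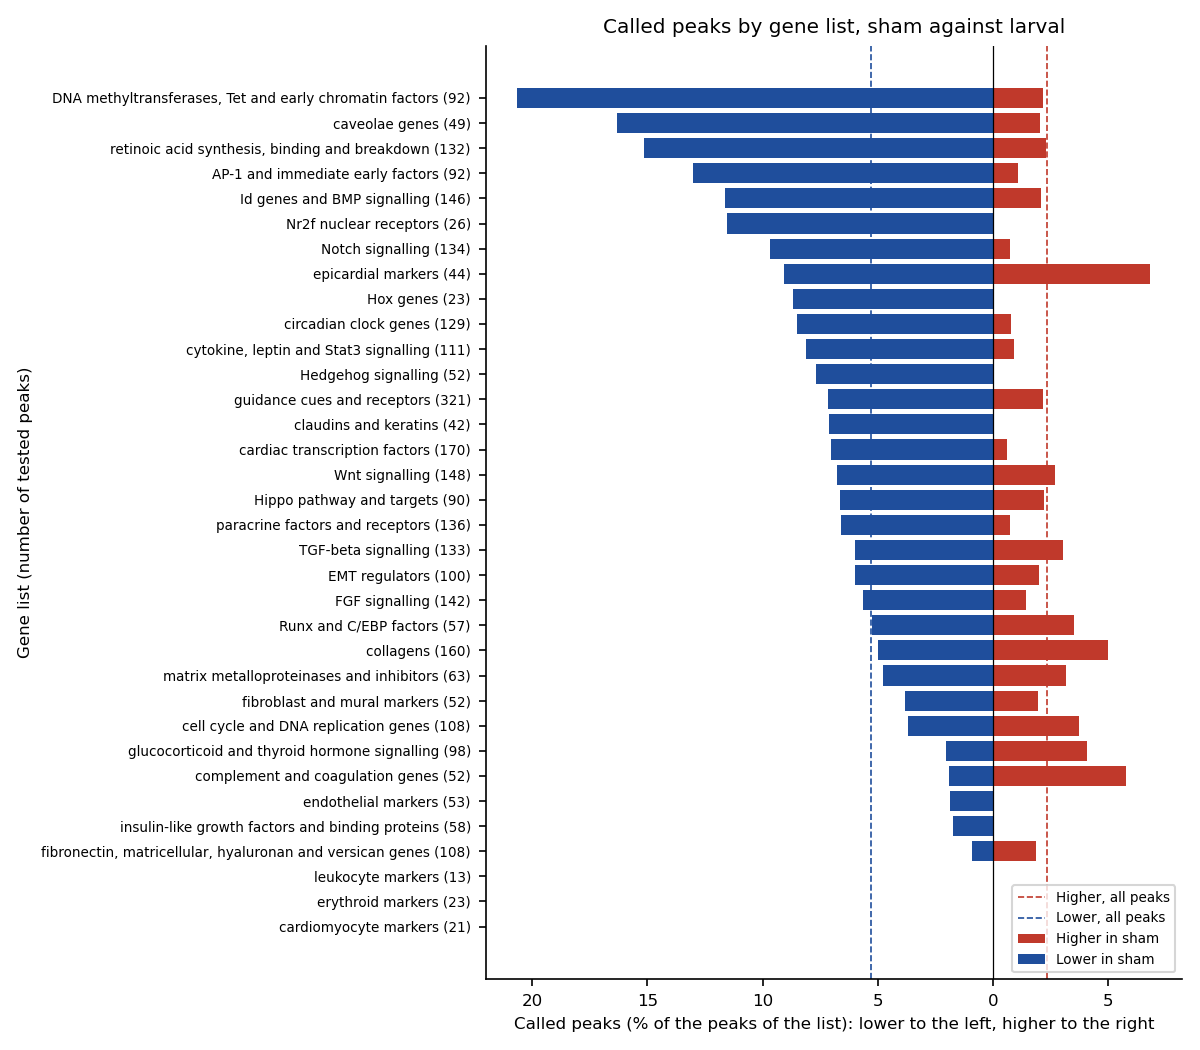
Share in percent of each list's peaks that were lower (left) or higher (right) in sham than in larval epicardium, with dashed lines at the shares of all tested peaks, 5.3% and 2.34%. The list of DNA methyltransferases, Tet enzymes and early factors stands farthest to the left at 20.7%, followed by caveolae at 16.3% and retinoic acid at 15.2%.

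Counted by gene, leaving out clone names, the most lower peaks were annotated to gse1 (8 of 36), celf2 (7 of 31), and raraa, aff2, sbf2, rerea, kdm6ba and derl3. The last had 6 each, of 23, 25, 12, 36, 24 and 9 peaks. Such a count favours genes with many peaks. Several of these genes encode chromatin and transcription regulators, kdm6ba a histone H3K27 demethylase, rerea an atrophin family corepressor and aff2 an elongation complex protein. Splicing factors are encoded by celf2 and by qkia, which had 5 lower peaks of 32 and 1 higher. How common such genes are among all genes with peaks was not counted. The kdm6ba promoter peak had 16.7 and 18.8 CPM in sham and 88.3 and 101 CPM in larva (log2 fold change −2.41, adjusted p = 0.000295). Yet RNA of kdm6ba, rerea and qkia was higher in sham (log2 fold change 2.28, 1.83 and 1.48, adjusted p = 0.00536, 0.0182 and 0.0172). For gse1, celf2, raraa, aff2 and sbf2 it was not called, and derl3 is given below. The celf2 peak with the strongest test had 2.73 and 0.725 CPM in sham and 42.5 and 33.0 CPM in larva (−4.21, adjusted p = 9.39e-06), while 3 other celf2 peaks were higher. Outside the tcf21 neighbourhood, ptk2aa, the focal adhesion kinase gene, pmp22b, ahnak, cirbpb, st6gal2a and brd8 led the higher peaks. Each had 3, of 13, 10, 8, 14, 8 and 4 peaks, and cirbpb also had 2 lower ones. The ptk2aa peak with the strongest test had 42.3 and 63.8 CPM in sham and 5.59 and 10.5 CPM in larva (2.74, adjusted p = 0.00141). The peaks of these genes with the strongest test lost the call in 1 of the fits that left out a library at ptk2aa and pmp22b, 2 at ahnak, and 3 at cirbpb, st6gal2a and brd8.

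Lower peaks also gathered in windows. The window chr22:11000001-12000000 held 19 lower peaks of 77, 14 of them annotated to BX323453.1, and 18 of the 19 were lower in cryoinjured adults than in tbx18 larval epicardium as well. The window chr19:42000001-43000000 held 16 lower of 78, of which 4 were lower and 12 higher in that other comparison. Its lower peaks had median levels of 71.4 CPM in sham, 182 in larval epicardium, 50 after cryoinjury and 138 in larval tcf21 cells outside the epicardium, but 15.3 and 22.2 CPM in tbx18 epicardium and outside it. The third, chr4:8000001-9000000, held 14 lower of 120, 3 each at wnt5b and erc1b, and 10 of the 14 were lower in the other comparison too. The next 3 windows held 13 lower peaks each and were described after their values were seen. In chr23:23000001-24000000, 12 of the 13 were also lower in the other comparison. In chr1:14000001-15000000 and chr8:30000001-31000000, 3 and 5 were lower there and 10 and 7 higher, and the lower peaks had medians of 46.5 and 39.2 CPM in sham, 130.1 and 109 in larval epicardium and 41.2 and 50.4 after cryoinjury, but 4.78 and 6.61 CPM in tbx18 epicardium. In the windows on chr19, chr1 and chr8 the group medians of all tcf21 reporter groups, larval and adult, thus lay above the tbx18 ones. The 6 lower derl3 peaks are in the chr8 window, and none was lower in the other comparison. RNA of derl3, a gene of protein degradation at the endoplasmic reticulum, fell by 3.35 on the log2 scale (adjusted p = 0.0241), a call lost without sham replicate 12 and without larval replicate 2.

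Higher and lower peaks lay in different parts of genes. Promoters made up 20.6% of tested peaks, 32.0% of higher peaks and 7.23% of lower peaks. Of the promoter peaks, 463 (3.63%) were higher and 237 (1.86%) lower, while 523 (1.97%) and 1692 (6.38%) of 26539 intronic peaks and 301 (1.96%) and 1103 (7.17%) of 15387 intergenic peaks were. Peaks in 5′ UTRs followed promoters, with 33 higher and 10 lower of 815, and those in exons had 69 and 137 of 4268. The share of lower peaks rose with distance from the nearest transcription start, from 1.81% within 500 bases to 4.34%, 5.88%, 6.69% and 7.51% in the bins that follow, and the share of higher peaks fell from 3.65% to 2.2%, 2.07%, 1.95% and 1.55%. The median distance was 4417 bases for higher, 14417.5 bases for lower and 8273 bases for all tested peaks. The difference in the share of counts in promoters between the groups, given above, moves with these values, and its part in them was not tested. With promoter-based scaling, promoters were 9.22% of lower peaks.

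**Figure D4:**
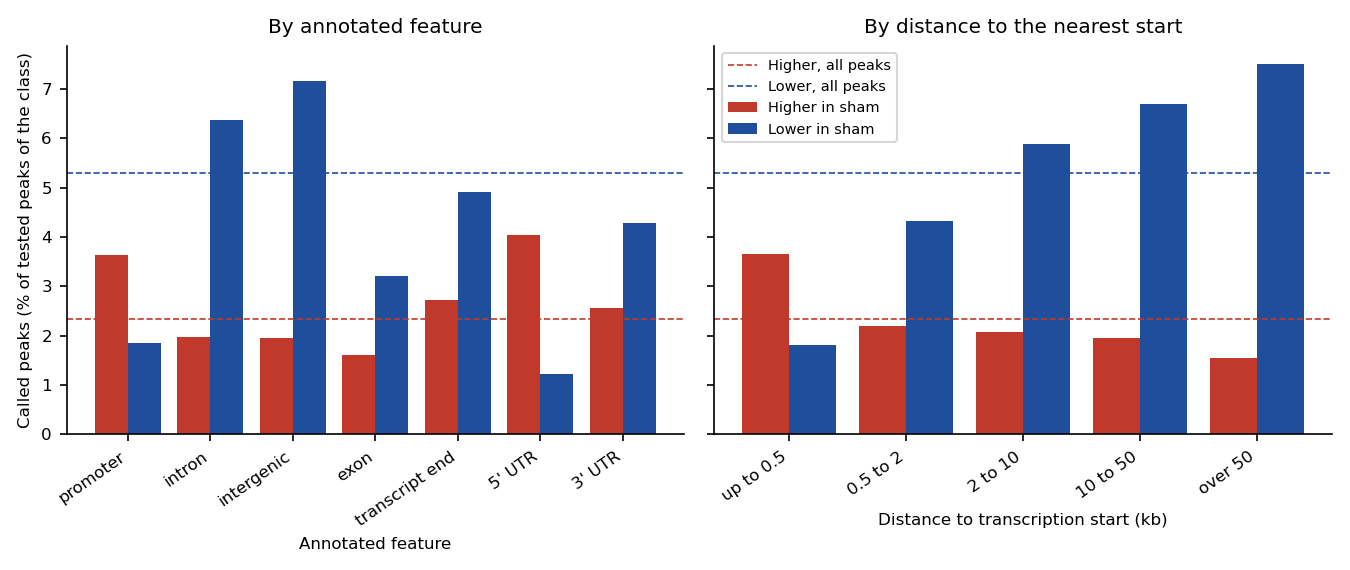
Share in percent of peaks that were higher or lower in sham than in larval epicardium, by annotated feature and by distance from the nearest transcription start, with dashed lines at the shares of all tested peaks. Lower peaks become more frequent with distance, from 1.81% within 500 bases to 7.51% beyond 50 kb, and higher peaks less frequent.

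Base composition differed as well. The median GC content was 45.7% in lower peaks, 41.5% in higher peaks and 42.7% in all tested peaks. From the lowest to the highest quintile of GC content, the share of lower peaks went from 2.64% to 10.4% and the share of higher peaks from 2.98% to 1.46%. After a trend on GC content was removed from the counts, 2960 peaks were lower, with a median GC content of 43.1%, and 1372 were higher. Of the 151 called peaks that the naming rule took, 138 kept their call under that correction and 13 lost it. The igf2bp3, igf2bp1, raraa, hand2, cry1bb and tgfb2 peaks whose coordinates or levels are given above kept theirs.

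The called peaks were then read in libraries that the comparison did not use. In cryoinjured adults against tbx18 larval epicardium, with 4 and 2 libraries, 2244 of the 3280 lower peaks (68.4%) were also lower, against 21.3% of all peaks, and 456 (13.9%) were higher. Lower peaks had a median of 26.5 CPM in tbx18 epicardium, against 8.62 CPM for all tested peaks, and fewer were promoters. The part of these differences in the shares was not tested. Of the 1446 higher peaks, 728 (50.3%) were also higher, against 25.2% of all peaks, and 78 (5.39%) were lower. Without the run around tcf21 the share was 703 of 1421 (49.5%). The median log2 fold change in that comparison was −1.76 for lower, 1.1 for higher and 0.15 for all peaks. By feature, 153 of the 463 higher promoter peaks (33.0%) were higher there, against 18.3% of all promoter peaks, and 311 of the 523 higher intronic peaks (59.5%), against 25.1% of all intronic peaks. That comparison has the same fish line for adults but another reporter, tbx18:myr-Citrine, for larvae.

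Median levels of the called peaks were also set side by side over all groups. Lower peaks had a median of 37.4 CPM in tcf21 larval epicardium, 26.5 CPM in tbx18 larval epicardium, 13.4 and 11.6 CPM in larval cells outside the epicardium of the tcf21 and tbx18 lines, 8.37 CPM after cryoinjury and 7.55 CPM in sham. In tbx18 larvae, 1336 of the lower peaks (40.7%) were higher in epicardium than outside it, against 13.8% of all peaks, and 263 (8.02%) were lower, against 13.1%. The part of level and feature differences between lower and all peaks in these shares was not tested. Of the 2244 peaks lower in both adult comparisons, 1165 were higher in tbx18 epicardium than outside it, 63 were lower and 1016 were not called. These peaks were chosen for high values in the same tbx18 epicardium libraries, so part of this split is fixed by the choice. Higher peaks had medians of 23.8 CPM in sham, 19.2 CPM after cryoinjury, 4.11 CPM in tcf21 larval epicardium, and 8.41 to 9.51 CPM in the other larval groups. Among them, 124 (8.58%) were higher and 161 (11.1%) lower in tbx18 epicardium than outside it.

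**Figure D5:**
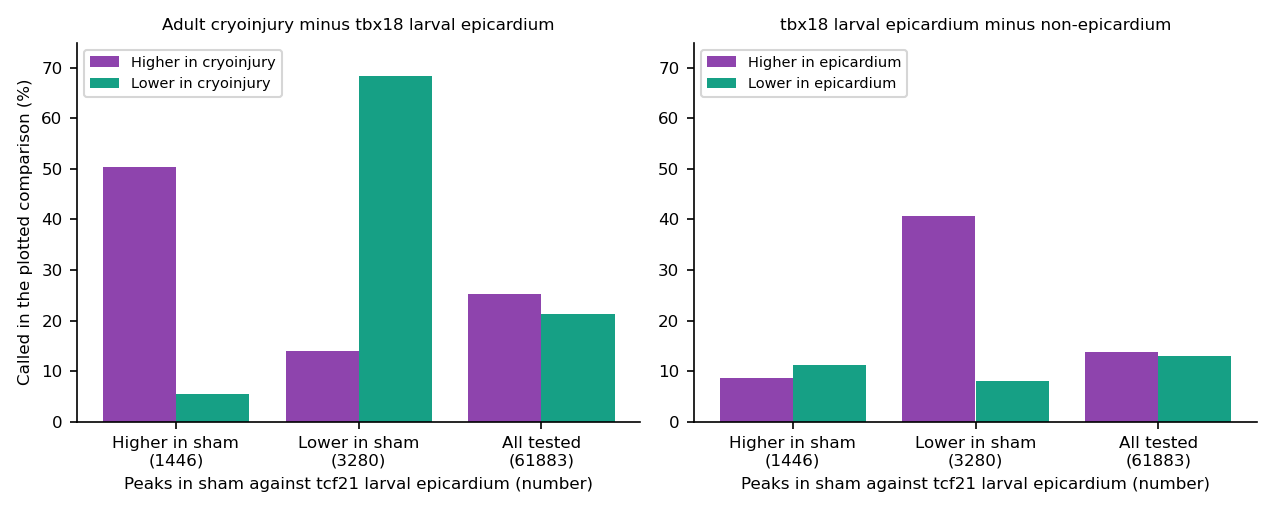
Share in percent of the higher, lower and all tested peaks that were called higher or lower in cryoinjured adults against tbx18 larval epicardium and in tbx18 larval epicardium against cells outside it. Lower peaks stand out in both, with 68.4% lower in the first and 40.7% higher in the second, against 21.3% and 13.8% of all peaks.

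RNA calls were then joined to peaks by their annotated genes. Among 1625 genes with lower peaks alone, RNA was lower in sham at 25.3%, against 22.6% of the 15851 tested genes with a peak, and higher at 15.7%, against 13.6%. Among 943 genes with higher peaks alone, RNA was higher at 18% and lower at 19.2%. Restricted to promoter peaks, 430 genes with a higher promoter had higher RNA at 20% and lower RNA at 18.8%, against 15.4% and 20% of all genes with a promoter peak, and 143 genes with a lower promoter had 21.0% each. The RNA groups also differ in how the material was purified.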

How the data were processed

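Tn5 libraries were made per the labels' protocols. The submitters' processing notes name Bowtie 1.2.3, SAMtools 1.10, MACS2 2.2.7.1, HOMER, DiffBind 3.0.13, STAR 2.7.3a, featureCounts and edgeR 3.32.1, and the build GRCz10. The authors deposited raw counts per peak or gene, without normalization per the file headers. A second set of accessibility columns, named FPKM per the file headers, is a signal proportional to the count of the same library and was not used. The peak annotation deposited by the authors gives GC content as a fraction, and distance to the nearest start as a signed score in bases.

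From the counts, edgeR 4.0.16 in R 4.3.3 fitted all 14 accessibility libraries in 6 groups with TMM factors, after a filter at a minimum count of 10 and total of 15, and the contrast was sham minus tcf21 larval epicardium. An adjusted p under 0.05 is a call, and adjusted p-values in the text are from edgeR's quasi-likelihood test over all peaks or genes. The 11 RNA libraries were fitted likewise over 20745 genes, and the numbers of the 3 larval RNA columns do not match the sample titles, so these are known by group only. Where a group was at or under 3 counts in each library, a fold is given against the mean CPM of 3 counts over its libraries, which covers counting error only. The labels do not say that replicates came from separate animals, so p-values measure the spread between samples, which may be technical. Replicate pairs differed by more than independent single reads would (chi-square per degree of freedom 3.45 in sham and 3.03 in larva). Even counts were more frequent than neighbouring odd ones, with ratios of 1.50 and 1.76 in larval and 1.12 and 1.36 in sham replicates 1 and 2. Whether reads were counted in pairs was not tested. If so, counting noise is larger and a count of 3 stands for fewer fragments. The fits were tested on simulated data, where most of the changes put in were not called, so a peak or gene that was not called is not shown to be unchanged.

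Named were, leaving out clone and placeholder gene names, the 10 largest rises and falls among called peaks with a mean of 10 CPM in a group and no overlap, the 5 promoters of largest change each way, the 10 genes with most called peaks each way by their strongest peak, all peaks of epicardial markers, up to 4 called genes of each list, and the 3 windows of 1000000 bases with most called peaks each way. Other genes were chosen after their values were seen. The comparison and the gene lists were chosen with earlier results of these data known. Some items are not reported here, and sequences and motifs were not analysed here.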

Additional observations from a re-analysis of the deposited data

How the results depend on the processing

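Of 4726 called peaks in all, promoter-based factors gave 7590 (598 higher, 6992 lower), and library totals gave 2557 higher and 2104 lower. The other 11 ways of processing gave 3562 to 5104. With a library left out, 1629 to 2582 peaks were called, 363 to 556 higher and 1125 to 2218 lower. The 34 lists held 292 called peaks in the main fit, 485 with promoter-based factors, and 125 to 189 with a library left out. The lone sample of a group is then assumed to vary like the other groups. Of the 151 called peaks taken by the naming rule, 29 lost their call under a setting that kept all libraries. With library totals, higher calls outnumbered lower ones. No named called peak changed sign under any setting run.

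The share of promoters among lower peaks, 7.23%, was 9.22% with promoter-based factors, 4.93% with the GC trend removed and 4.98% to 7.06% with a library left out. Among higher peaks it was 32.0%, and 28.6% with the GC trend removed, 36.9% with the abundance trend removed, 29.6% in a fit of the 4 compared libraries over the same peaks, 36.5% with library totals and 26.1% to 35.5% with a library left out. The median GC content of lower peaks, 45.7%, was 43.1% with the GC trend removed. Of lower peaks, 68.4% were also lower in the libraries not compared. That share was 56.6% with promoter-based factors (background 21.3%), 70.7% with the abundance trend removed and 71.8% to 84.5% with a library left out. The 40.7% that were higher in tbx18 epicardium became 38.5%, 43.4%, 45% and 46% with promoter-based factors, the abundance trend removed, halved counts and library totals, and 39.8% to 52.4% with a library left out. The 25.3% of genes with lower RNA (background 22.6%) became 30.4% with DESeq2's Wald test, 29.7% with its size factors, 28.1% with the compared groups alone and 32.9% with library totals, beside backgrounds of 28.4%, 26.6%, 25.3% and 30.0%. Without larval RNA replicate 2, 3 or 4 it was 17.7%, 20.1% and 17.9%, beside 14.4%, 17.3% and 15.1%, and without sham RNA replicate 4 or 12 it was 11.3% and 11%, beside 9.45% and 8.07%. Apart from these settings' own construction, the causes were not tested.

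Sham and larval replicates share numbers in the labels but no stated batch, and the deviations of same-numbered libraries had a correlation of −0.02 over peaks. With the replicate number as a block, 3665 peaks were called (1001 higher, 2664 lower) and the share also lower in the libraries not compared was 64.2%. With the block and the GC trend removed, promoters were 4.66% of lower and 28.8% of higher peaks, and the shares in the libraries not compared and in tbx18 epicardium were 62.4% and 38.8%. The sham and larval RNA columns share only the number 4, too few for a blocked RNA fit. The larval libraries, with 941610 and 755606 counts, limit which losses in larva can be told from 0: a count of 3 is 3.35 and 4.51 CPM there, and 1.02 and 2.17 CPM in sham.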
